A study of Mus musculus with 32 samples.

Results

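The transcripts of 9 B cell and plasma cell marker genes were followed in mouse liver tumours treated with the kinase inhibitor regorafenib or with antibodies. The genes were taken by name: Ms4a1, Cd79a, Cd79b, Pax5 and Cd22 as B cell genes, Mzb1, Tnfrsf17 and Derl3 as plasma cell genes, and Cxcl13 as a chemokine that attracts B cells. They are 9 of the 54446 genes counted in 32 RNA sequencing libraries. Every member was found in the count tables, and 8 of the 9 passed the filter on low counts in at least 1 comparison. Tnfrsf17 passed it in none.

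All groups carried the same tumour, the mouse liver cancer line BNL-MEA implanted in the liver of immune-competent BALB/c mice. In a dose experiment, 4 vehicle tumours were set beside 3 tumours given 5 mg/kg/day of regorafenib, called the low dose, and 3 given 20 mg/kg/day, called the high dose. In a DC-101 experiment, 4 vehicle tumours were set beside 3 low dose tumours and 3 treated with DC-101, which is an antibody to the VEGF receptor VEGFR2 of the mouse, injected on days 1, 3 and 5 with 800 ug. An anti-PD1 experiment had 3 tumours each of vehicle, low dose, anti-PD1 (an antibody to an inhibitory receptor of T cells) and regorafenib + anti-PD1, called the combination. The experiments are batches by their labels, and each treatment was therefore compared with the vehicle of its own experiment. Age and sex of the mice are not given in the labels, and neither is a source mouse for each library, so p-values measure the spread between libraries. Comparisons within an experiment share its vehicle libraries. The tumours hold 1 cell line and whatever host cells lay in the sampled piece. RNA was taken from whole tumour, where fewer cells of a type and less RNA per cell cannot be told apart.

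B cells bind antigen through a membrane immunoglobulin that signals through the paired chains CD79A (Cd79a) and CD79B (Cd79b). CD20 (Ms4a1) is a surface protein of mature B cells, PAX5 is the transcription factor that holds B cell identity, and CD22 is a lectin that dampens receptor signalling. On becoming plasma cells, B cells shut down PAX5 and CD20 and turn to secretion. MZB1 is an endoplasmic reticulum cofactor of antibody assembly, DERL3 belongs to the machinery that removes misfolded proteins from that compartment, and BCMA (Tnfrsf17) is the receptor of plasma cell survival factors. CXCL13 is the ligand of CXCR5 and draws B cells into lymphoid follicles. In tumours, B cells, plasma cells and CXCL13 are known from lymphoid aggregates.

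The members lie on 8 chromosomes and are all protein coding (GRCm38, Gencode M21). Ms4a1 (ENSMUSG00000024673.9) is at chromosome 19, 11249675 to 11266241, and Pax5 (ENSMUSG00000014030.15) at chromosome 4, 44524757 to 44710487. Cd79a (ENSMUSG00000003379.7) at 24897381 to 24902197 and Cd22 (ENSMUSG00000030577.14) at 30865402 to 30880342 share chromosome 7. Cd79b (ENSMUSG00000040592.11) is at chromosome 11, 106311341 to 106314762, and Mzb1 (ENSMUSG00000024353.5) at chromosome 18, 35647267 to 35649367. Tnfrsf17 (ENSMUSG00000022496.5) is at chromosome 16, 11313812 to 11320074, Derl3 (ENSMUSG00000009092.5) at chromosome 10, 75893413 to 75895941, and Cxcl13 (ENSMUSG00000023078.6) at chromosome 5, 95956951 to 95961068. Pax5, Cd22 and Mzb1 share exon bases with another annotated gene, and for Pax5 and Cd22 that gene is antisense. The strand setting of the counting is not given in the sources used here. Where counted, the overlapping genes of the members had at most 2 reads in any library. The gene that overlaps Mzb1 was not among the counted genes.

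Promoter sequences were taken from RefSeq (GRCm38.p6), as the 250 bases before the RefSeq start, and 6 of the 9 members had an entry. The promoters of Pax5, Derl3 and Cxcl13 are shown to stand for the B cell, plasma cell and chemokine members. Pax5 was near the limit of detection, Derl3 correlated with liver genes, and Cxcl13 was the most abundant member. The windows are in lower case throughout, since none of the motifs searched was in them.

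Pax5 (chr4:44710695-44710944, minus strand): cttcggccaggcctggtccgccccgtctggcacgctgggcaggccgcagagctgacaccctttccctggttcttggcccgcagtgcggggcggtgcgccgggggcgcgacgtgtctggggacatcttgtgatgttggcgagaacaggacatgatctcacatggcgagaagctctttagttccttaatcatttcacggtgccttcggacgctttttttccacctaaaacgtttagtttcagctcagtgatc
Derl3 (chr10:75893148-75893397, plus strand): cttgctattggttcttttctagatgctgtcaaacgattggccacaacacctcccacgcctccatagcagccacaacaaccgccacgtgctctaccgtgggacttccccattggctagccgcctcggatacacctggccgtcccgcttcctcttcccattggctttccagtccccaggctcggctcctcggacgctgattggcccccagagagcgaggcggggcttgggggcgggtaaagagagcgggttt
Cxcl13 (chr5:95956689-95956938, plus strand): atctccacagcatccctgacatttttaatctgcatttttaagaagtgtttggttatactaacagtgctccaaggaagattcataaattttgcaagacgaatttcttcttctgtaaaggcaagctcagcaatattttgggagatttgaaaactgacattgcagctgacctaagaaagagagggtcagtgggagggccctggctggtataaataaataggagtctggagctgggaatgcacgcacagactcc

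Motifs were searched on both strands. The octamer ATTTGCAT, bound by B cell factors, was in 1.6% of 32851 promoters and in 0 of the 6 members with a promoter. The EBF-like motif CCCNNGGG was in 11.8% of promoters and in 1 of the 6, Cd22, as CCCTGGGG 48 bases before the start. TGACGTGG, an element read by factors of the unfolded protein response, was in 0.563% of promoters and in 0 of the 6. These are matches of letters in a short window, without binding data.

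The libraries had 16767130 to 27693689 counts in total. Hepatocyte genes, looked for under the label of hepatocellular carcinoma, summed to 18.2 to 86547 CPM (counts relative to the scaled library total). At this depth most members were scarce. The median count over 32 libraries was 4 for Ms4a1 and Pax5, 7 for Mzb1, 9 for Derl3, 21 for Cd79a, 38 for Cd79b, 45 for Cd22 and 259 for Cxcl13. Tnfrsf17 had a count in 10 of 32 libraries. High dose replicate 2 had the highest count of all 9 members. It held 69.7% of all Tnfrsf17 counts, 43.9% of Mzb1, 43.2% of Ms4a1, 37.5% of Pax5, 33.1% of Cd79a, 21.7% of Derl3, 17.9% of Cd22, 17.7% of Cd79b and 10.4% of Cxcl13. The members' results at the high dose, and the counts over gene lists there, are therefore also given without that library.

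**Figure D1:**
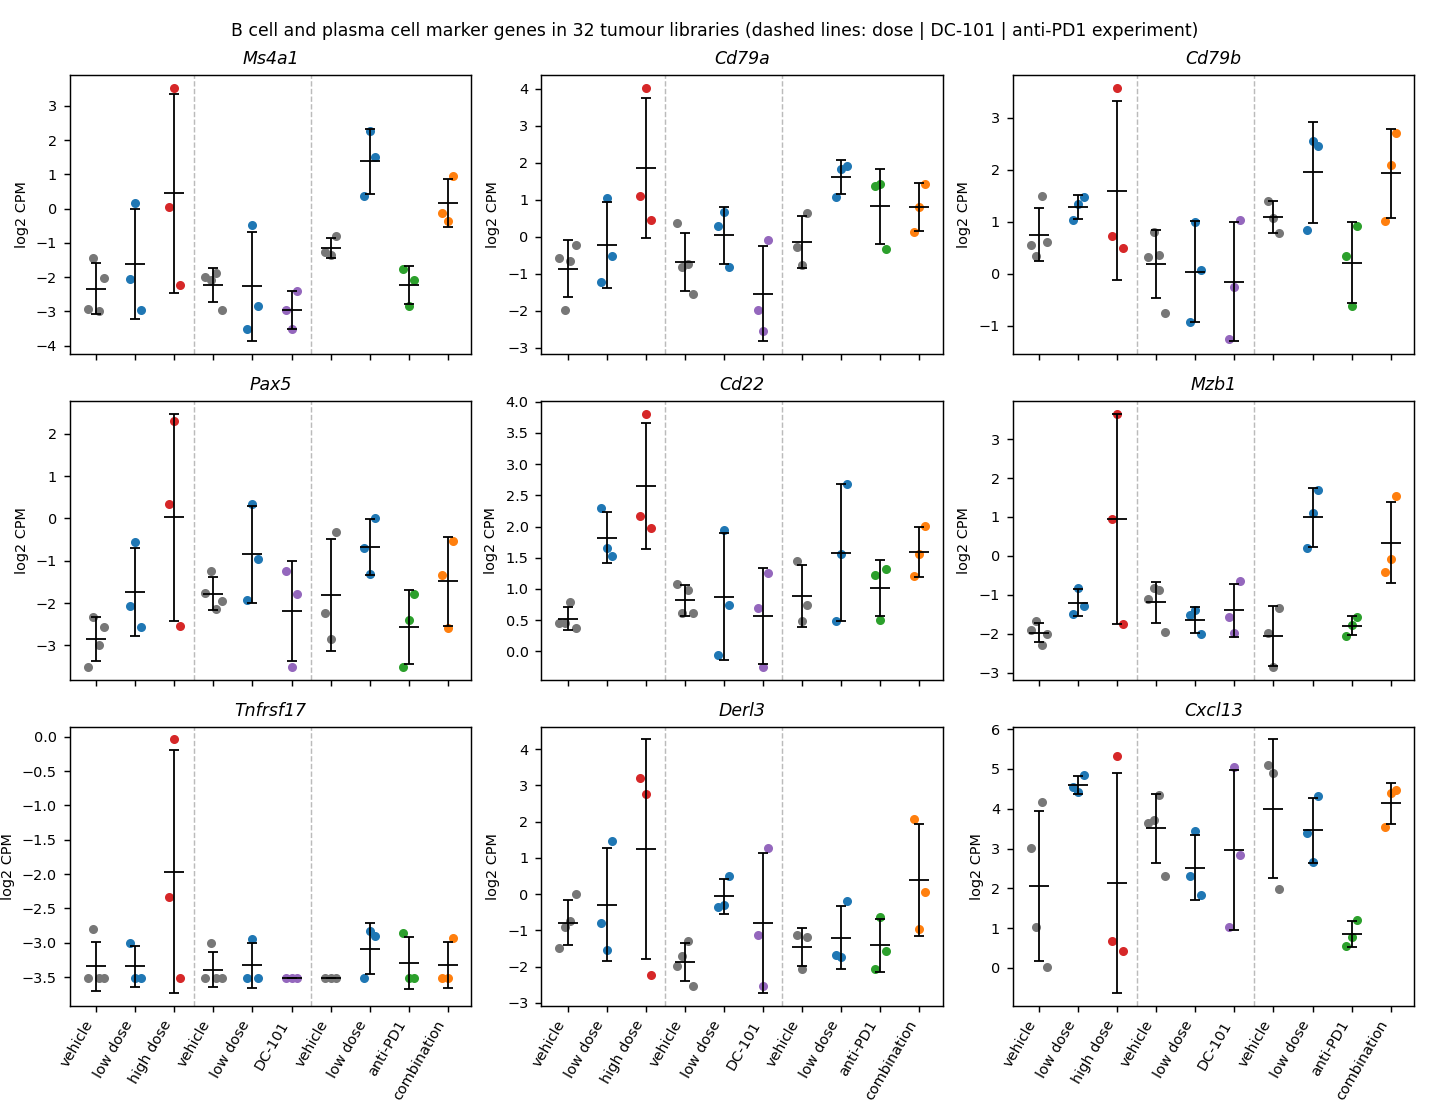
Level of each member in each of 32 libraries as log2 CPM (vertical axis; CPM are counts relative to the TMM-scaled library total, prior count 2) for the 10 groups (horizontal axis), where each point is a library and the black bars give the mean and SD. High dose replicate 2 is the highest point in 8 of the 9 panels and second to high dose replicate 1 for Derl3, and in the anti-PD1 experiment low dose and combination libraries lie above the vehicle and anti-PD1 libraries for Ms4a1 and Mzb1.

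Per length, Cxcl13 was the most abundant member in vehicle tumours, at 11.7 ± 9.75 CPM per kb of exon (SD, n = 11). Cd79b followed at 1.11 ± 0.451 CPM per kb, then Cd79a at 0.449 ± 0.262 and Cd22 at 0.32 ± 0.0846. Mzb1 at 0.201 ± 0.117 and Derl3 at 0.174 ± 0.116 CPM per kb were within their spread of each other. Ms4a1 at 0.032 ± 0.0226, Pax5 at 0.0201 ± 0.0223 and Tnfrsf17 at 0.0104 ± 0.0236 CPM per kb were lowest and not separable. Cd79a and Cd22, and Cd22 and Mzb1, also overlapped within their SD. So did Cd79b and Cd79a, whose proteins pair, with 12 to 70 counts of Cd79b and 3 to 33 of Cd79a in the vehicle libraries.

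Whether low dose regorafenib changed the B cell genes was asked first over all 3 experiments, with 9 low dose against 11 vehicle libraries and the experiment as a term. None of the 8 tested members passed an adjusted p of 0.05 (edgeR quasi-likelihood test, 2-sided), where 1.52% of 17238 genes did. At an unadjusted p under 0.05 there were 6 of 8, where 15.6% of all genes tested were. The median log2 change of the tested members was 1.19, against 0.02 over all genes, and 7 of 8 were higher. Ms4a1, Pax5 and Mzb1 reached the filter's level in only 1, 1 and 2 vehicle libraries and needed low dose libraries to be tested at all, so these counts and this median are a description. DESeq2 called 4 of them (Ms4a1, Cd79a, Pax5 and Cd22, adjusted p 0.0382, 0.0369, 0.0446 and 0.0483), where it called 1061 of all genes (6.16%). Limma voom called no member and 310 genes. The high count library of the high dose is not part of this comparison.

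Ms4a1, the CD20 gene, had a log2 change of 1.87 (SE 0.63, adjusted p 0.138, edgeR). In the dose experiment it had 1, 5, 1 and 4 counts in vehicle and 4, 28 and 1 in low dose libraries. In the DC-101 experiment it had 4, 4, 4 and 1 against 0, 15 and 1. In the anti-PD1 experiment it had 8, 6 and 11 against 32, 89 and 60. The groups overlapped in the first 2 experiments, with 1 high low dose library in each, and separated in the third.

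Pax5 had a log2 change of 1.47 (SE 0.49, adjusted p 0.136, edgeR), from counts of 0 to 16 in vehicle and 2 to 28 in low dose libraries. When the vehicle library with 16 counts (replicate 3, anti-PD1 experiment) was left out, its change was 1.95 and its adjusted p 0.0456 (edgeR). Cd79a, with 3 to 33 counts in vehicle and 9 to 79 in low dose libraries, had a change of 1.12 (SE 0.37, adjusted p 0.136, edgeR). Cd79b had 0.48 (SE 0.31, adjusted p 0.476, edgeR).

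Cd22, the inhibitory lectin, had a log2 change of 0.86 (SE 0.29, adjusted p 0.144, edgeR). It separated in the dose experiment, where vehicle libraries had 29, 23, 42 and 30 counts and low dose libraries 127, 83 and 69. In the DC-101 experiment the counts were 49, 39, 41 and 34 against 20, 89 and 30, and in the anti-PD1 experiment 64, 26 and 36 against 35, 54 and 138. These 2 overlapped.

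Among the plasma cell genes, Mzb1 was furthest from vehicle in the anti-PD1 experiment. There it had 4, 1 and 7 counts in vehicle and 28, 39 and 68 in low dose libraries. In the DC-101 experiment it had 9, 13, 10 and 4 against 6, 7 and 3, and in the dose experiment 4, 4, 3 and 4 against 7, 13 and 8. The low dose groups were thus above vehicle without overlap in 2 experiments and overlapped with it in the DC-101 experiment. The change over the 3 was 1.27 (SE 0.51, adjusted p 0.234, edgeR), and 0.21 without the anti-PD1 experiment. A test of whether the low dose change differed between experiments gave an unadjusted p of 0.00017 for Mzb1 and an adjusted p of 0.377 (edgeR), with 0.0117 by DESeq2. In that test 0% of 17238 genes passed with edgeR, while 1695 had an unadjusted p under 0.05. Of the members, Mzb1 and Cxcl13 were among those 1695.

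Derl3 had a log2 change of 1.26 (SE 0.43, adjusted p 0.144, edgeR) for the low dose. Its counts in the DC-101 experiment were 4, 6, 7 and 2 in vehicle and 16, 17 and 25 in low dose libraries, which did not overlap, whereas Mzb1 was not higher there. Derl3 reached the filter's level in 0 of 4 of these vehicle libraries. In the fit of that experiment alone it was thus tested only through the low dose. All 10 hepatocyte genes were higher in the same low dose libraries, with a median log2 change of 3.1 and 1 at an unadjusted p under 0.05, and summed to 1409 to 17467 CPM against 18.2 to 4705 in vehicle. Their part in the values of Derl3 was not tested. Tnfrsf17 had at most 1 count in every vehicle and low dose library. Both groups were below a floor of 3 counts, so no fold is given.

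Cxcl13, the B cell chemokine, had an estimate near 0 over the 3 experiments. Its log2 change was -0.01 (SE 0.57, adjusted p 0.996, edgeR), with an interval of 2 SE from -1.15 to 1.13. In the dose experiment it had 178, 35, 459 and 23 counts in vehicle and 614, 574 and 710 in low dose libraries, without overlap. In the DC-101 experiment the low dose libraries had 65 to 252 counts against 298, 355, 442 and 115 in vehicle, and in the anti-PD1 experiment 274, 119 and 430 against 836, 592 and 88. The estimates were 1.77 (SE 1.24), -0.98 (SE 0.88) and -0.92 (SE 0.64) in the 3 experiments. The test of their difference had an unadjusted p of 0.0445 and an adjusted p of 0.501 (edgeR).

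In the dose experiment, where Cd22, Mzb1 and Cxcl13 separated, other cell types were also higher at the low dose. Macrophage genes summed to 3564 to 4305 CPM against 1454 to 3125 in vehicle, and all 8 were higher, 5 of them with an unadjusted p under 0.05. T cell genes summed to 36.2 to 49.2 CPM against 16.7 to 33.4, and all 12 were higher, 5 of them with an unadjusted p under 0.05. Their part in the members' values was not tested.

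Within single experiments, no member passed the adjusted threshold for the low dose. In the dose experiment 0% of 16525 genes were called by edgeR, with 817 at an unadjusted p under 0.05 and 85 by DESeq2. In the DC-101 experiment 0.0248% of 16138 genes were called, 4 genes and no member, with 2766 at an unadjusted p under 0.05 and 1097 by DESeq2. Ms4a1 and Pax5 did not pass the count filter there. In the anti-PD1 experiment 0% of 16615 genes were called, with 1964 at an unadjusted p under 0.05 and 425 by DESeq2. There the low dose libraries were above all vehicle libraries for Ms4a1, Cd79a and Mzb1. Ms4a1 had a change of 2.93 (SE 0.62) and Mzb1 of 3.5 (SE 0.74), both with an adjusted p of 0.246 by edgeR, and 0.00256 and 0.00227 by DESeq2. Neither would have passed the filter on vehicle and anti-PD1 libraries, where Ms4a1 reached its level in 1 of 6 and Mzb1 in 0 of 6, so that both were tested only through the groups in which they were high. Cd79a had 1.74 (SE 0.59, adjusted p 0.294, edgeR), from 18, 10 and 33 counts to 54, 66 and 79.

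The antibody genes were high in the same low dose libraries of the anti-PD1 experiment. Jchain had 196, 541 and 575 counts there against 38, 30 and 43 in vehicle, and Igkc had 1164, 1524 and 4091 against 160, 92 and 226. The immunoglobulin constant genes summed to 146 to 544 CPM against 18.2 to 65.2 in vehicle. T cell genes summed to 39.5 to 76.2 CPM against 29.1 to 85.1, which overlapped, and hepatocyte genes to 915 to 3843 CPM against 8526 to 11522. Erythroid genes summed to 16.8 to 84.3 CPM against 164 to 675, with a median log2 change of -2.76 and 3 of 4 at an unadjusted p under 0.05. The part of these in the members' values was not tested.

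**Figure D2:**
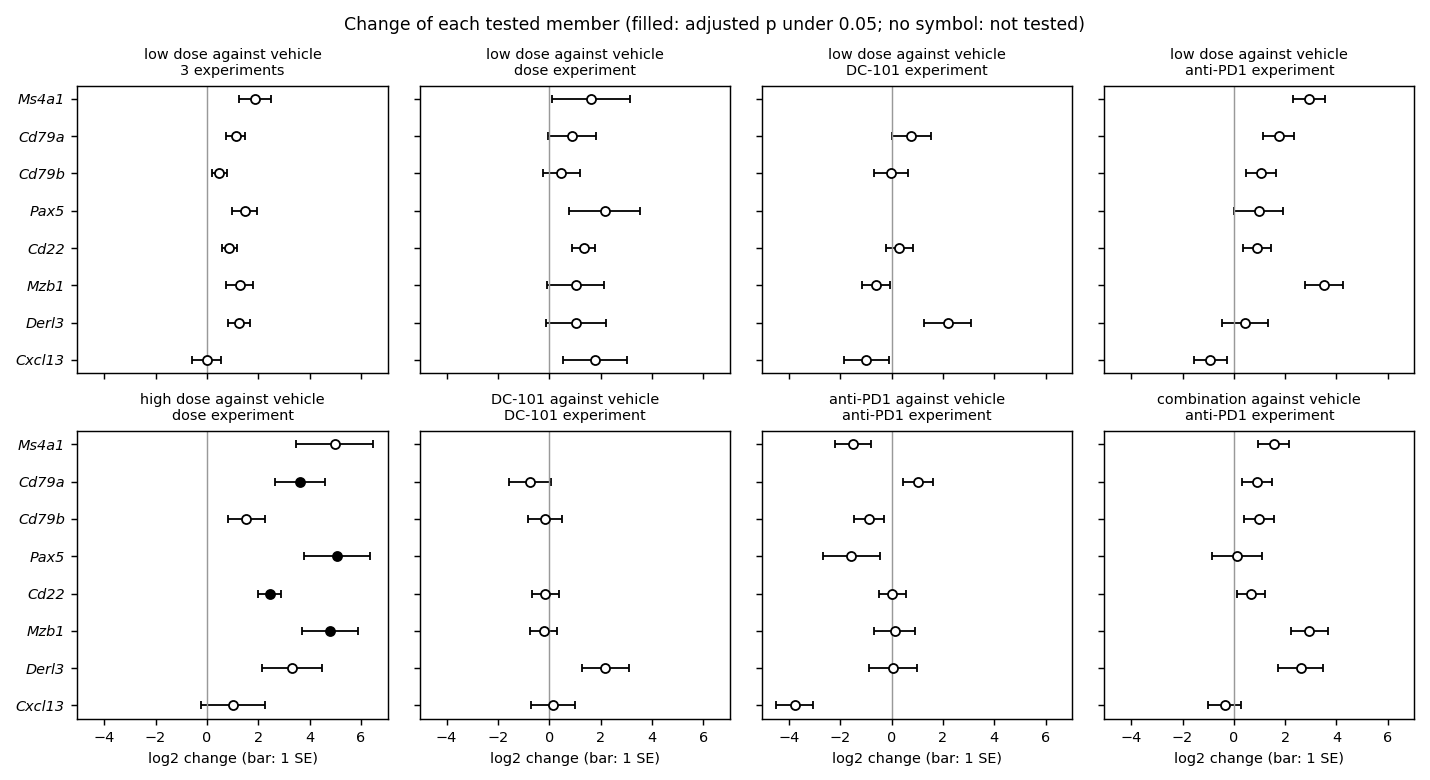
Log2 change of each tested member (horizontal axis, bars of 1 SE, edgeR) in 8 comparisons with vehicle, with filled symbols for an adjusted p under 0.05. The filled symbols are Cd79a, Pax5, Cd22 and Mzb1 at the high dose. Cxcl13 has the lowest estimate in every panel except the low dose in the dose experiment and DC-101.

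Related genes from lists of the B cell lineage gave context for the low dose over 3 experiments. Of 11 tested immunoglobulin constant genes, 2 rose and 0 fell, and 9 had an unadjusted p under 0.05, with a median log2 change of 1.79. These were Ighg1, an IgG1 heavy chain, with 3.44 (SE 0.6, adjusted p 0.00448, edgeR) and Igkc, the kappa light chain, with 2.28 (SE 0.55, adjusted p 0.0437, edgeR). Of 13 other plasma cell genes 3 rose and 1 fell. Jchain, which joins secreted IgM and IgA, rose by 2.19 (SE 0.52, adjusted p 0.0416, edgeR) and Creld2, an endoplasmic reticulum stress gene not confined to plasma cells, by 0.69 (SE 0.15, adjusted p 0.0267, edgeR). Sdc1 changed by -0.67 (SE 0.1, adjusted p 0.00196, edgeR). Sdc1 encodes syndecan-1, which epithelial cells also carry. Of 21 other B cell genes 0 passed, and 10 had an unadjusted p under 0.05. Spib had 1.66 (SE 0.5, adjusted p 0.0981, edgeR) and Btk 0.45 (SE 0.15, adjusted p 0.137, edgeR).

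Lists of the signals that draw and keep B cells, and of other cell types, were read in the same fit. None of 16 tested attraction and survival genes passed and 7 had an unadjusted p under 0.05, with Ccr7, a homing receptor, at 1.23 (SE 0.38, adjusted p 0.108, edgeR) and Cxcr4 at -0.66 (SE 0.24, adjusted p 0.17, edgeR). Of 5 tested precursor and germinal centre genes 1 rose, Mybl1, by 0.96 (SE 0.16, adjusted p 0.00327, edgeR). T cell genes had 0 of 12 past the threshold, 4 at an unadjusted p under 0.05 and a median of 0.69. Cd5 and Icos had the smallest p of that list (adjusted 0.138 and 0.155, edgeR). Plasmacytoid dendritic cell genes had 0 of 5, led by Siglech and Klk1 (adjusted p 0.183 and 0.409, edgeR), with a median of 0.69. Hepatocyte genes had 0 of 10, led by Hpd and Cyp2e1 (adjusted p 0.311 and 0.407, edgeR), with a median of 1.32. Of 8 macrophage genes 1 rose, Fcgr1, by 0.73 (SE 0.18, adjusted p 0.0467, edgeR). Erythroid genes had 0 of 4, led by Hbb-bs and Hba-a1 (adjusted p 0.0578 and 0.0642, edgeR), with a median of -2.04. Of the pancreatic acinar genes only Cela1 was tested, with an adjusted p of 0.696 (edgeR), and the others had at most 12 counts. No lymph node and follicular dendritic cell gene passed the filter. The part of these cell types in the members' values was not tested.

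The high dose against vehicle was the one comparison in which edgeR called members. Of 8 tested, 4 rose: Cd79a by 3.63 (SE 0.97, adjusted p 0.0442, edgeR), Pax5 by 5.07 (SE 1.3, adjusted p 0.0421, edgeR), Cd22 by 2.44 (SE 0.45, adjusted p 0.0265, edgeR) and Mzb1 by 4.8 (SE 1.09, adjusted p 0.036, edgeR). In this comparison 15.6% of 16525 genes were called. Ms4a1, Pax5 and Mzb1 reached the filter's level in 0 of 4 vehicle libraries, and were tested only through 1 low dose and 2 high dose libraries in which they were high. With no filter edgeR called Cd22 (adjusted p 0.0401) and no other member, with Mzb1 at 0.0556 and Pax5 at 0.0669. Ms4a1 with 4.97 (SE 1.51, adjusted p 0.0521, edgeR), Derl3 with 3.31 (SE 1.18, adjusted p 0.0713, edgeR), Cd79b with 1.54 (SE 0.71, adjusted p 0.136, edgeR) and Cxcl13 with 1.02 (SE 1.24, adjusted p 0.562, edgeR) did not pass. DESeq2 called 6 of the 7 members to which it gave an adjusted p, where it called 5275 of all genes (31.9%), and limma voom 1, where it called 1349. With edgeR, no member was called with the replicate number as a block, with total count scaling, with a hepatocyte score in the fit, with only these 2 groups in the fit (where Ms4a1, Pax5 and Mzb1 were not tested), or without any 1 of the 4 vehicle libraries. The genes called of all tested fell as well, to at most 282 in these settings.

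These values came largely from high dose replicate 2. In order of replicate, the high dose libraries had 37, 419 and 31 counts of Cd79a, 21, 127 and 2 of Pax5, 79, 362 and 93 of Cd22 and 33, 325 and 5 of Mzb1. Vehicle libraries had 13, 3, 14 and 19 counts of Cd79a, 0, 2, 1 and 2 of Pax5, 29, 23, 42 and 30 of Cd22 and 4, 4, 3 and 4 of Mzb1. Relative to library size, all 3 high dose libraries were above all vehicle libraries for Cd79a and Cd22, while replicate 3 lay within vehicle for Mzb1 and Pax5. For Cd79b the high dose libraries had 28, 308 and 32 counts against 31, 21, 70 and 36, and replicates 1 and 3 lay within vehicle. Cxcl13 had 27, 1048 and 30 counts, and again only replicate 2 was above vehicle.

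Without high dose replicate 2, only Cd22 of the members passed, with a log2 change of 1.64 (adjusted p 0.0313, edgeR). Mzb1 then had 2.6 (adjusted p 0.0765, edgeR), Pax5 3.39 (adjusted p 0.0974, edgeR) and Cd79a 1.71 (adjusted p 0.139, edgeR). Ms4a1 had 2.06 (adjusted p 0.282, edgeR) and Derl3 3.13 (adjusted p 0.137, edgeR). In that fit 3.19% of 16858 genes were called. Cd79b changed sign, to -0.19, and Cxcl13 to -2.34, neither past the threshold. The fitted change of Pax5 depends on the prior count, since every vehicle library had under 3 counts. Over the group, the counts of Pax5 were 150 in high dose and 5 in vehicle, a ratio per library size of 40.1 (95% exact interval 16.8 to 125.2), and 9.94 (3.7 to 33.5) without replicate 2. Tnfrsf17 had 25 counts against 1, a ratio of 33.4 (5.46 to 1371), and 2 against 1 without replicate 2. These intervals cover counting error only.

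High dose replicate 2 also had the most reads of some genes of organised lymphoid tissue. Glycam1, a mucin of high endothelial venules, had 98 counts there and at most 9 in the other 31 libraries. Cr2 had 110 against at most 17, Fcer2a 148 against at most 15, and Madcam1 75 against at most 21. Cxcr5, the receptor of CXCL13, had 82 against at most 16. The 7 lymph node stroma and follicular dendritic cell genes summed to 0.621 to 19.4 CPM in high dose libraries and 0.133 to 0.741 CPM in vehicle libraries of the dose experiment. Of these 7, Ccl21a had its highest count in another library, anti-PD1 replicate 1, and the counts of Ccl19 and Chst4 are not given. Jchain had 629, 11890 and 16 counts and Igkc 1785, 28870 and 61 in the high dose libraries, against 8 to 31 and 22 to 115 in vehicle. Cr2, Fcer2a and Cxcr5 are expressed by B cells themselves, and Cr2 and Fcer2a also stand in the list of other B cell genes, so that these 3 and the sum are not separate from the B cell signal. What tissue these reads came from was not tested.

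**Figure D3:**
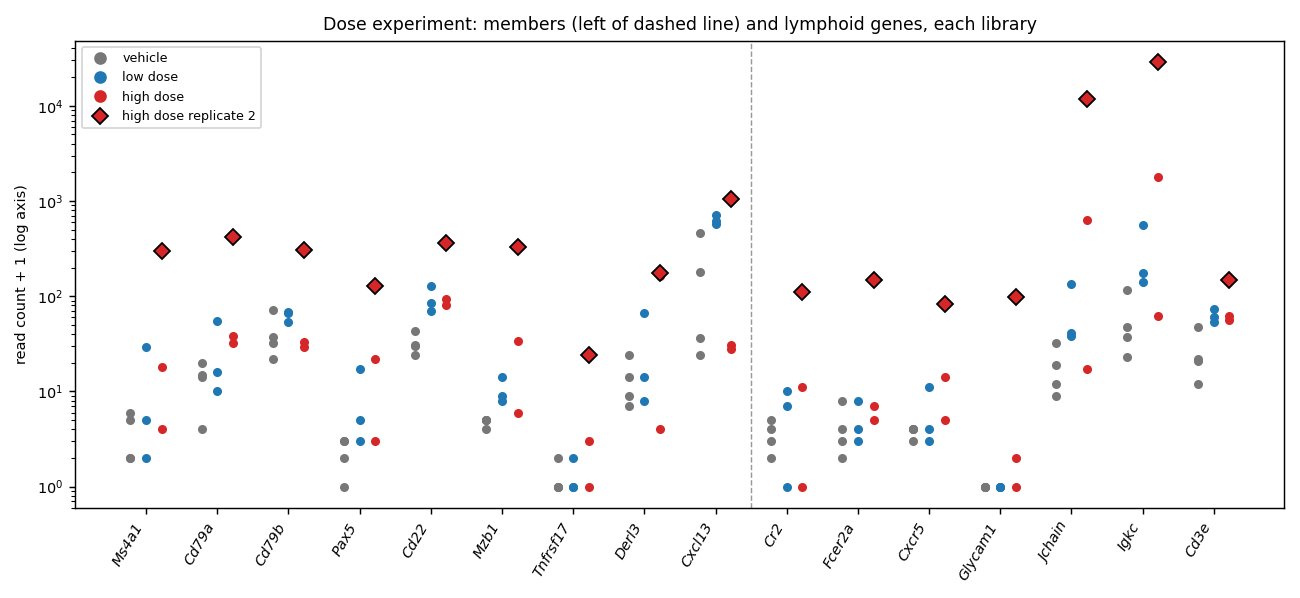
Read counts plus 1 on a log axis in each library of the dose experiment, for the 9 members (left of the dashed line) and 7 lymphocyte and lymphoid tissue genes (right), with each point a library. The black-edged diamonds of high dose replicate 2 are the highest point for every gene drawn, at 98 counts of Glycam1 and 28870 of Igkc.

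Other cell types were read in the same fit, where 15.6% of all genes were called. T cell genes rose in 7 of 12, with summed levels of 37.9 to 106 CPM against 16.7 to 33.4 in vehicle. Macrophage genes fell in 6 of 8, and hepatocyte genes rose in 2 of 10 with summed levels of 3530 to 86547 CPM against 1311 to 6929 in vehicle. Of 13 other plasma cell genes 3 rose and 0 fell, and of 14 attraction and survival genes 4 rose and 1 fell. Of 6 precursor and germinal centre genes 0 rose and 1 fell, of 4 erythroid genes 0 rose and 1 fell, and Cela1 rose. Of 9 tested immunoglobulin constant genes 6 rose and 0 fell, and of 19 other B cell genes 3 rose and 3 fell. The 3 that fell, Btk, Cd72 and Cd180, are also expressed by myeloid cells, and Cd72 changed by -1.98 (SE 0.31, adjusted p 0.0187, edgeR). Blk, Pou2af1 and Ikzf3 were the 3 that rose, and Ikzf3 had 2.94 (SE 0.58, adjusted p 0.0303, edgeR). These genes were looked up after the counts were seen. Without high dose replicate 2, a setting chosen after seeing the data, 0 of 12 T cell genes rose, although all 12 were higher and 8 had an unadjusted p under 0.05. Macrophage genes again fell in 6 of 8, and hepatocyte genes rose in 0 of 10. Of 13 other plasma cell genes 0 rose and 1 fell, and of 14 attraction and survival genes 0 rose and 2 fell. No precursor and germinal centre, erythroid or acinar gene was called. Of the immunoglobulin constant genes 1 of 9 rose, Ighg1, and all 9 were higher. Of the other B cell genes 0 of 19 rose and 5 fell (Btk, Cd72, Cd180, Pou2f2 and Blnk). Ikzf3 then had 2.06 (SE 0.47, adjusted p 0.0568, edgeR) and Cd72 -2.29 (SE 0.33, adjusted p 0.0141, edgeR). In both fits the part of T cells and macrophages in the members' values was not tested. Values with a hepatocyte score added to the first fit are given below.

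Against the low dose of the same experiment, no member passed at the high dose, where 4.22% of 16525 genes did (4842 at an unadjusted p under 0.05). The 2 contrasts share the high dose libraries. Mzb1 had 3.77 (SE 1.14, adjusted p 0.0877, edgeR) and Cd79a 2.74 (SE 1.03, adjusted p 0.129, edgeR), and DESeq2 called these 2, where it called 3059 of all genes (18.5%). Mzb1 was again tested only through the 1 low dose and 2 high dose libraries that reached the filter's level. Limma voom called no member and 782 genes. Cxcl13 had -0.75 (SE 1.33, adjusted p 0.717, edgeR). Leaving out 1 of the 10 libraries in turn gave 0 members in 9 cases, high dose replicate 2 among them. Without high dose replicate 3 edgeR called 4 members, where it called 4488 of 17092 genes. Without replicate 2 Mzb1 had 1.56 (adjusted p 0.236, edgeR), Cd79a 0.83 (adjusted p 0.504, edgeR) and Cxcl13 -4.1 (adjusted p 0.115, edgeR), and 3.4% of 16858 genes were called.

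DC-101 was included to separate effects of blocking VEGFR2 from other effects of regorafenib. No member passed with DC-101 against vehicle, and 0% of 16138 genes did (2131 at an unadjusted p under 0.05, 373 by DESeq2). The B cell genes tested had estimates within 1 SE of 0, at -0.75 (SE 0.81) for Cd79a, -0.17 (SE 0.68) for Cd79b and -0.15 (SE 0.52) for Cd22, and so did the plasma cell gene Mzb1, at -0.22 (SE 0.52). Ms4a1, with 1, 0 and 2 counts against 4, 4, 4 and 1 in vehicle, and Pax5, with 8, 0 and 4 against 5, 9, 3 and 4, were too scarce to be tested. Tnfrsf17 had no count in the 3 DC-101 libraries.

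Derl3 had a larger estimate, 2.18 (SE 0.91, adjusted p 0.363, edgeR), from 9, 2 and 46 counts that overlapped with the 4, 6, 7 and 2 of vehicle. Derl3 reached the filter's level in 0 of 4 vehicle, 1 of 3 DC-101 and 3 of 3 low dose libraries. It was thus tested only through the low dose. With DC-101 too all 10 hepatocyte genes were higher, with a median log2 change of 3.6 and 2 at an unadjusted p under 0.05, and summed to 61.9 to 24645 CPM against 18.2 to 4705, and their part was not tested. Cxcl13 had 47, 789 and 141 counts and an estimate of 0.15 (SE 0.85), with 1 library above all vehicle libraries. Directly against the low dose, 0% of genes and no member passed (edgeR, 1364 at an unadjusted p under 0.05, 203 by DESeq2). The difference of DC-101 from the low dose was -1.52 for Cd79a (interval of 2 SE from -3.22 to 0.19), 0.38 for Mzb1 (-0.76 to 1.53) and 0 for Derl3 (-1.8 to 1.79). All 3 intervals include higher and lower values, so that a difference is neither shown nor bounded closely.

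In the anti-PD1 libraries Cxcl13 was lower than in any other library of that experiment. It had 836, 592 and 88 counts in vehicle and 27, 32 and 44 in anti-PD1 libraries, without overlap. Its log2 change was -3.77 (SE 0.72), with an unadjusted p of 0.00026 and an adjusted p of 0.249 (edgeR), and 7.4e-05 adjusted by DESeq2. No member passed with edgeR, as 0% of 16615 genes did, with 2269 at an unadjusted p under 0.05 and 614 by DESeq2. Ms4a1 had 4, 1 and 3 counts against 8, 6 and 11 in vehicle, a change of -1.5 (SE 0.72, adjusted p 0.386, edgeR), again without overlap. Mzb1 had 3, 4 and 5 counts against 4, 1 and 7, a change of 0.12 (SE 0.81, adjusted p 0.97, edgeR). Liver and blood genes were lower in these libraries too. Hepatocyte genes had 10 of 10 at an unadjusted p under 0.05 and a median of -2.54, with summed levels of 802 to 2595 CPM against 8526 to 11522 in vehicle, and erythroid genes had 3 of 4 and a median of -2.53. Their part in the members' differences was not tested.

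Cd79a parted from Ms4a1 in these libraries. It had 49, 51 and 14 counts with anti-PD1 against 18, 10 and 33 in vehicle, a change of 1.02 (SE 0.58, adjusted p 0.471, edgeR), whereas Ms4a1 had at most 4 counts. Its partner chain Cd79b had 23, 11 and 36 counts against 62, 40 and 37. Anti-PD1 replicates 1 and 2 thus held more Cd79a reads than any vehicle library of this experiment, and fewer Ms4a1 and Cd79b reads than each of them. Anti-PD1 replicate 1 also had 45 counts of Ccl21a, a lymphatic chemokine, the most of any library.

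**Figure D4:**
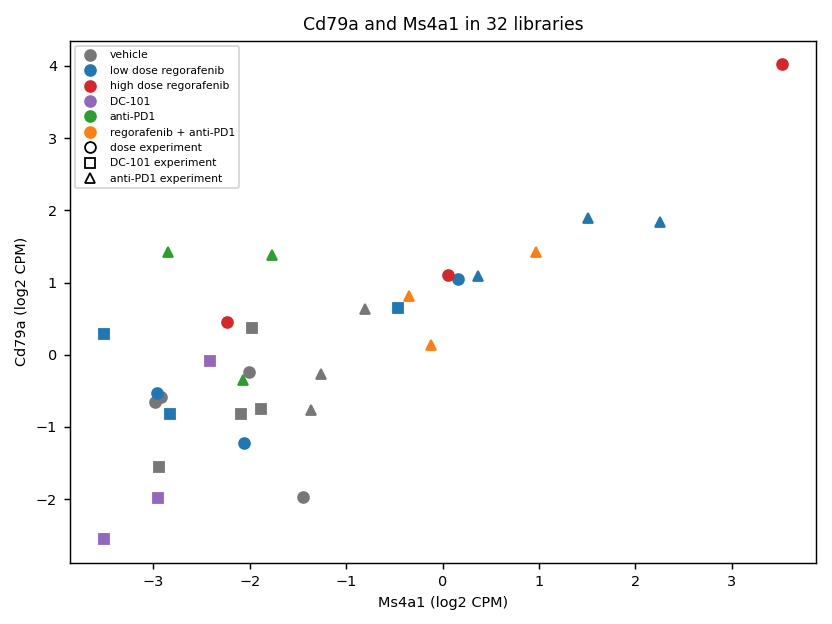
Cd79a against Ms4a1 as log2 CPM in 32 libraries, with colour for the treatment and symbol shape for the experiment. High dose replicate 2 is at the upper right, and 2 anti-PD1 libraries, with 49 and 51 counts of Cd79a and 4 and 1 of Ms4a1, lie above the other libraries with little Ms4a1.

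Regorafenib + anti-PD1 was compared with vehicle and with anti-PD1, whose values share the combination libraries. Against anti-PD1, 5 of 8 tested members had an unadjusted p under 0.05, where 8.68% of all genes did, and none passed after adjustment (edgeR, 0% of 16615 genes, 1443 at an unadjusted p under 0.05, 210 by DESeq2). In vehicle libraries Ms4a1 reached the filter's level in 1 of 3, and Mzb1 and Derl3 in 0 of 3. In anti-PD1 libraries Ms4a1 and Mzb1 reached it in 0 of 3 and Derl3 in 1 of 3. These members were thus tested only through low dose or combination libraries, and the count of 5 is a description. Cxcl13 had 266, 537 and 511 counts with the combination, a log2 change of 3.42 (SE 0.71, adjusted p 0.472, edgeR). Ms4a1 had 19, 18 and 43 counts, a change of 3.05 (SE 0.69, adjusted p 0.472, edgeR). Mzb1 had 15, 22 and 65 counts, a change of 2.83 (SE 0.73, adjusted p 0.472, edgeR). For all 3 genes every combination library was above every anti-PD1 library, and DESeq2 called them, with adjusted p of 0.00062, 0.0285 and 0.0407. Of the 3, Ms4a1 and Mzb1 were tested only through the groups in which they were high.

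Cd79b was also without overlap, with 44, 108 and 148 counts and a change of 1.85 (SE 0.6, adjusted p 0.472, edgeR), and Derl3 had 95, 11 and 22 counts against 3, 11 and 5. Cd79a did not follow, with 23, 43 and 60 counts and a change of -0.1 (SE 0.57, adjusted p 0.964, edgeR). Of 11 tested immunoglobulin constant genes all 11 had an unadjusted p under 0.05, with a median of 4.5, and 0 passed the adjusted threshold. T cell genes had 7 of 12 at an unadjusted p under 0.05, and their summed level was 55.5 to 119 CPM with the combination and 26.5 to 42.4 with anti-PD1. Hepatocyte genes had 9 of 10 at an unadjusted p under 0.05, with summed levels of 3687 to 16153 CPM against 802 to 2595. The part of T cell and liver content in these differences was not tested.

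Against vehicle, the combination gave no member past the threshold (edgeR, 0% of 16615 genes, 1362 at an unadjusted p under 0.05, 150 by DESeq2). Mzb1 had 2.94 (SE 0.73, adjusted p 0.449, edgeR, 0.0298 by DESeq2), Derl3 2.6 (SE 0.87, adjusted p 0.491, edgeR) and Ms4a1 1.55 (SE 0.61, adjusted p 0.558, edgeR). In vehicle Mzb1 and Derl3 reached the filter's level in 0 of 3 libraries and Ms4a1 in 1 of 3. These members were thus tested only through treated libraries. Cxcl13 had -0.35 (SE 0.64, adjusted p 0.9, edgeR). The combination libraries were above all vehicle libraries for Ms4a1, Mzb1 and Derl3. In the same contrast all 11 immunoglobulin constant genes were higher (median 2.66, 7 with an unadjusted p under 0.05), as were 11 of 12 T cell genes (median 1.09, 3 with an unadjusted p under 0.05), and all 4 erythroid genes were lower (median -2.41, 2 with an unadjusted p under 0.05). Their part in the members' values was not tested. For all 9 members the combination libraries overlapped with the low dose libraries.

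Of the members, Derl3 had the highest correlation with liver genes over all libraries. A hepatocyte score was taken as the mean of the log2 CPM over 10 liver genes. Over 32 libraries, Derl3 and this score, each centred within its experiment, had a Pearson r of 0.63 (permutation p 1e-04, adjusted 6e-04 over 18 relations) and a Spearman rho of 0.55 (permutation p 0.0021, adjusted 0.00756). Without the 2 libraries farthest from the median of the score, r was 0.61. Within experiments it was 0.91 (dose), 0.65 (DC-101) and 0.34 (anti-PD1). The other 8 members had r between 0.08 and 0.19 with this score over all libraries. Within the dose experiment they were higher for most, at 0.65 for Mzb1, 0.63 for Pax5, 0.54 for Cd22, 0.52 for Tnfrsf17, 0.48 for Cd79a, 0.47 for Ms4a1 and 0.32 for Cd79b, with -0.08 for Cxcl13. In the DC-101 experiment these 8 ran from -0.15 (Ms4a1) to 0.27 (Cd79b). In the anti-PD1 experiment they ran from -0.54 for Cd79a and Tnfrsf17, with -0.39 for Cd22 and -0.22 for Mzb1, to 0.37 for Cxcl13. High dose replicate 1 had the highest hepatocyte sum, 86547 CPM, and 163 counts of Derl3, but 17 of Ms4a1. When this score was added to the fit, the estimate of Derl3 at the high dose went from 3.31 to -0.26. The other 7 tested members kept their sign, with Ms4a1 at 5.48, Cd79a at 3.78, Cd79b at 1.26, Pax5 at 4.74, Cd22 at 2.44, Mzb1 at 4.22 and Cxcl13 at 1.4. No member was called in that fit, where the genes called of all tested went from 2582 to 93.

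**Figure D5:**
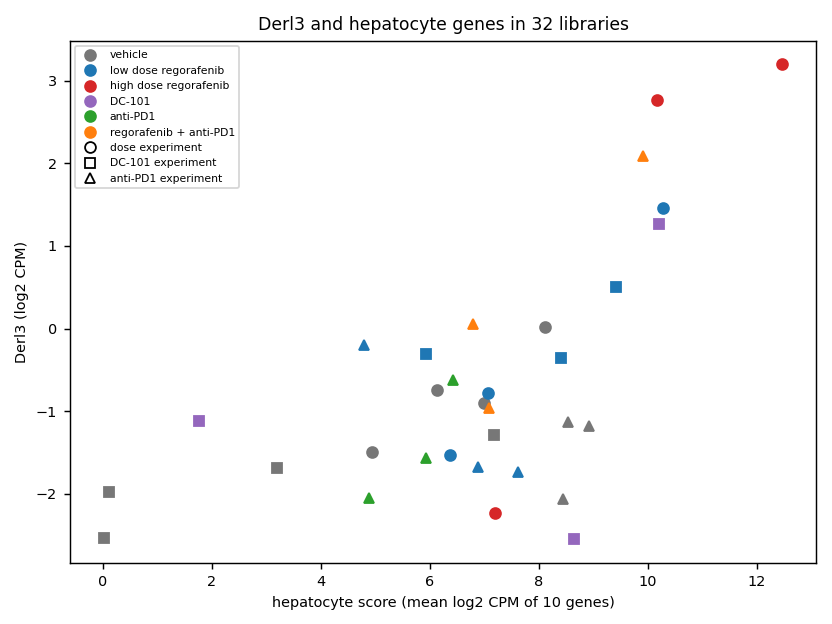
Derl3 as log2 CPM (vertical axis) against the hepatocyte score (horizontal axis, a mean of log2 CPM over 10 liver genes) in 32 libraries, with colour for the treatment and shape for the experiment. Derl3 is highest in high dose replicates 1 and 2, whose scores are above that of high dose replicate 3, and r was 0.63 after centring within experiments.

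T cell content moved with the B cell genes. Values were centred within experiments and treatment was not removed, so that differences between treatments enter these r and p-values. With a T cell score of 12 genes, Cd22 had a Pearson r of 0.72 (permutation p 1e-05, the smallest 100000 permutations can give, adjusted 0.00018) and a Spearman rho of 0.7 (permutation p 2e-05, adjusted 0.00036). Without the 2 libraries farthest from the median it was 0.64, and within the 3 experiments 0.93, 0.71 and 0.65. Cd79b had an r of 0.67 (permutation p 9e-05, adjusted 6e-04) and a rho of 0.63 (p 0.00031, adjusted 0.00279), and r was 0.59 without those 2 libraries. Cd79a had an r of 0.47 (permutation p 0.00591, adjusted 0.0148) and a rho of 0.40 (p 0.0255, adjusted 0.051). Without the same 2 libraries its r was 0.28, and within the anti-PD1 experiment 0.13, so that the relation of Cd79a rested on few libraries. That of Tnfrsf17 did too, with an r of 0.41 (permutation p 0.0074, adjusted 0.0148), a rho of 0.22 (p 0.191, adjusted 0.344) and an r of 0.17 without those 2 libraries. Pax5 went from 0.54 to 0.36 without them and had 0.26 within the anti-PD1 experiment. Ms4a1, Mzb1, Derl3 and Cxcl13 had r between 0.44 and 0.59, and between 0.39 and 0.55 without them. Within experiments the r of Cxcl13 was 0.50 (dose), 0.10 (DC-101) and 0.66 (anti-PD1).

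The members also differed in what they resembled. As a description over 32 libraries after centring within experiments, the genes most like Mzb1 included Jchain (r = 0.9), Fcmr (0.88), Pou2af1 (0.85) and Fcrla (0.81), and 44 of its 50 nearest genes were immunoglobulin segments. Without high dose replicate 2 Jchain was still the nearest (0.84), and 37 of 50 were segments. The genes most like Cd79a included Pou2af1 (0.77), Fcmr (0.76), Jchain (0.76) and Blk (0.75), with 36 segments of 50. Without high dose replicate 2 its nearest genes were Tmem179 (0.73), Trib3 (0.68) and Phlda1 (0.68), and 3 of 50 were segments. Trib3 is a gene of the integrated stress response. Cxcl13 was most like BC064078 (0.75), Gm15987 (0.67), Lrrc4 (0.66), Clec4a1 (0.65) and Gbgt1 (0.64), with 0 segments of 50, and Clec4a1 is a myeloid lectin.

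Between members, the highest r over 32 libraries were those of Ms4a1 with Mzb1 (0.87) and with Pax5 (0.83), which were 0.8 and 0.74 without high dose replicate 2. Cd79a with Cd79b had 0.53, and 0.32 without that library. Cxcl13 had its highest r with Cd79b (0.64, and 0.59 without it) and 0.07 with Cd79a. These r share libraries, depth and low counts, and are given as a description.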

How the data were processed

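RNA was measured by RNA sequencing (TruSeq Stranded mRNA, read pairs) in 32 tumours. Per the labels and the submitters' processing notes, the authors trimmed with cutadapt 2.4 and used STAR 2.7.2a for alignment to GRCm38 and for gene counts. The deposited values are raw read counts without normalization. The strand column that was taken is not given in the sources used here. Groups, replicate numbers and experiments came from the labels. Of the 54446 genes, 54409 (99.93%) had a symbol.

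Counts were fitted per experiment with edgeR 4.0.16 (R 4.3.3): filterByExpr (minimum count 10, total 15), TMM scaling, then a 2-sided F-test of the robust quasi-likelihood kind, Benjamini-Hochberg adjusted over all genes tested, at a threshold of 0.05. The low dose was also fitted over 3 experiments with experiment as a term, and a further test asked whether its change differed between them. The SE is the log2 change divided by the square root of F. Log2 CPM used TMM over 32 libraries and a prior count of 2. DESeq2 1.42.0 and limma 3.58.1 voom were alternatives, beside other scalings, no filter, a hepatocyte covariate, a replicate block and leaving out libraries. Score relations used 100000 permutations of libraries within experiments and across treatments, so that differences between treatments enter them. Libraries of a group were compared by chi-square (13.97 to 918.5 per degree of freedom over 36 pairs), and no duplicate was found. The code was tested on simulated data. Reads carried no molecular identifiers.

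The members, lists and tests were chosen with earlier results of these data known. All 9 members are named. From each other list up to 3 genes with the largest change among those past the threshold in the low dose fit over 3 experiments are named, or else the 2 with the smallest unadjusted p, and the 5 most similar genes are given for Cd79a, Mzb1 and Cxcl13, except that 1 gene is not reported here.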

Additional observations from a re-analysis of the deposited data

Results flagged for a closer look

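In groups of 4 libraries, the highest or lowest value was set against the others by Dixon's criterion, and 2 of 18 gene-by-group checks passed it. Both were Tnfrsf17, the BCMA gene. Vehicle replicate 2 of the dose experiment had a log2 CPM of -2.8 and vehicle replicate 2 of the DC-101 experiment -3.01, each from 1 count against 0 in the other 3 libraries of its group. With 3 tied values in a group any other value of the remaining library passes the criterion, so the usual chance rate of about 1 in 20 does not apply to these 2.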

How the results depend on the processing

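For the high dose against vehicle, the count of members past the threshold was 4, against 1 with limma voom, 0 with total count scaling, 1 with no filter, 0 with the hepatocyte score as a covariate, 0 with only the 2 groups compared and 0 to 7 without 1 library. It was 0 without each vehicle library and without low dose replicates 1 and 2, 3 without high dose replicate 1, 1 without high dose replicate 2 and 7 without high dose replicate 3. The genes called of all tested moved with it, from 2582 to 5275 with DESeq2, 1349 with limma voom, 282 with total count scaling, 416 with no filter, 93 with the hepatocyte covariate, 4 with only the 2 groups, 15 to 83 without a vehicle library, 135 and 284 without low dose replicates 1 and 2, and 956, 537 and 7030 without high dose replicates 1, 2 and 3. Where edgeR called 0 members, DESeq2 called 4 for the low dose over 3 experiments (with 6.16% of all genes called), 2 for high against low dose (18.5%), 2 for the low dose and 1 for anti-PD1 in the anti-PD1 experiment (2.56% and 3.7%), 1 for the combination against vehicle (0.903%), 3 against anti-PD1 (1.26%), and 1 for the low dose change between experiments (0.65%). Leaving out 1 library gave 0 to 1 for the low dose over 3 experiments and 0 to 4 for high against low dose. A filter over the 2 treatments, chosen after seeing the data, left 5 members tested for the low dose over 3 experiments and called 0. The cause of these differences was not tested.

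With the replicate number as a block, the high dose count was 0, with 1 gene called of all tested, and every other comparison stayed at 0 members. The labels give the numbers no meaning. Same-numbered libraries deviated together, at an r above 0.1, in 2 of 9 pairs (dose), 4 of 9 (DC-101) and 7 of 18 (anti-PD1), and were taken as unpaired.

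Of the log2 changes, 25 of those under other settings and 53 of those without 1 library changed sign. Cxcl13 for the low dose over 3 experiments was 0.0019 with DESeq2, 0.36 with voom, 0.0037 with DESeq2 size factors, 0.0232 with total count scaling, 0.0164 with no filter, 0.56 without the DC-101 experiment, 0.48 without the anti-PD1 experiment and 0.0062 with the filter over treatments. With the hepatocyte covariate Derl3 in the dose experiment was -0.67 for the low and -0.26 for the high dose, Cxcl13 -0.88 for DC-101, Cd22 -0.96 and Mzb1 -0.88 for anti-PD1, and Cd79a 0.26 for the combination against anti-PD1. With the block Cxcl13 was -0.36 for the high dose and -0.87 for DC-101, and Cd22 -0.0197 for anti-PD1. With voom Cxcl13 was -0.55 for DC-101 and 0.11 for the combination against vehicle, Derl3 -0.0386 for anti-PD1 and Cd79a 0.0159 for the combination against anti-PD1. Cd22 for anti-PD1 was -5e-04 with total count scaling. Derl3 for DC-101 against the low dose was 0.0269 with DESeq2, 0.0178 with its size factors and 0.0303 with no filter.

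Without 1 library, the log2 changes that crossed 0 were these. For the low dose over 3 experiments, Cxcl13 ran from -0.25 to 0.18. For the low dose in the dose experiment, Ms4a1 ran from -0.38 to 2.23, Cd79a ran from -0.13 to 1.29 and Derl3 ran from -0.56 to 1.56. For the high dose against vehicle, Cd79b ran from -0.19 to 1.98 and Cxcl13 ran from -2.34 to 2.0043. For the high against the low dose, Cd79b ran from -0.67 to 1.51. For the low dose in the DC-101 experiment, Cd79b ran from -0.67 to 0.36 and Cd22 ran from -0.43 to 0.67. For DC-101 against vehicle, Cd79b ran from -1.06 to 0.30, Cd22 ran from -0.58 to 0.21, Mzb1 ran from -0.83 to 0.14 and Cxcl13 ran from -1.44 to 0.68. For DC-101 against the low dose, Cd79b ran from -1.03 to 0.55, Cd22 ran from -0.88 to 0.31, Mzb1 ran from -0.22 to 0.74, Derl3 ran from -1.9985 to 0.58 and Cxcl13 ran from -0.45 to 1.74. For the low dose in the anti-PD1 experiment, Derl3 ran from -0.40 to 0.74. For anti-PD1 against vehicle, Pax5 ran from -2.48 to 0.11, Cd22 ran from -0.15 to 0.36, Mzb1 ran from -0.28 to 0.77 and Derl3 ran from -0.59 to 0.39. For the combination against vehicle, Pax5 ran from -0.65 to 1.78 and Cxcl13 ran from -0.85 to 0.0407. For the combination against anti-PD1, Cd79a ran from -0.49 to 0.18.

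Depth limited Ms4a1, Pax5, Mzb1 and Tnfrsf17 most, with median counts of 4, 4, 7 and 0 per library.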
